A study of Drosophila melanogaster with 4 samples.

Results

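RNA polymerase II (Pol II) regions were examined on the mapped heterochromatic scaffolds of the Drosophila melanogaster genome, which are assembled pieces of heterochromatin assigned to a chromosome arm but not joined to it. The members were all listed regions on 2LHet, 2RHet, 3LHet, 3RHet, XHet and YHet, chosen by scaffold name alone, and the unplaced scaffolds (U) were left out. There were 269 such regions of 14635 in the lists of both ChIP samples. Replicate 1 held 104 of its 5763 regions there (1.80%, Wilson 95% interval 1.49% to 2.18%), and replicate 2 held 165 of 8872 (1.86%, interval 1.60% to 2.16%). The list of the whole series, which holds what both replicates share, had 61 of its 4366 regions on these scaffolds (1.40%, interval 1.09% to 1.79%).

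Heterochromatin is the compact, late-replicating part of the genome around the centromeres and along most of the Y chromosome. It is rich in transposable elements and satellite repeats, and it carries histone marks and proteins that keep most of it silent. It still holds genes, among them some essential ones, which Pol II transcribes within this repeat-rich setting. Short sequencing reads often match several repeat copies there, so a region list covers the parts of heterochromatin on which reads could be placed.

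Whole embryos of mixed age, 0 to 24 h, were used in all 4 samples of the series. No strain, genotype or treatment is given in the labels. The 2 ChIP samples came from separate chromatin extractions and were precipitated with CTD4H8, a mouse monoclonal antibody against the repeated carboxyl-terminal tail of the largest Pol II subunit. The 2 input samples, sequenced without precipitation, were not analysed here, so no background in input was measured. Whether the deposited regions and scores were already set against input is not given in the sources used. In a whole embryo, Pol II on a region in few cells cannot be told apart from less Pol II in many cells. The authors give every listed region 2 ends and a score, a number without a unit. Positions are on FlyBase r5.1 and count from 1. No genome or gene annotation of that release was used, so regions are given by position, without genes or sequence. Without read counts in the lists the depth of each sample is unknown, and intervals cover counting error only. With 1 list for each extraction, the tests count regions as independent and hold no measure of how further extractions would vary. Regions often lie in groups, which may break this independence. The p-values may then be too small and the intervals too narrow.

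The members lay mostly on the scaffolds of the large autosomes, and every scaffold except YHet had more of them in replicate 2. On 2RHet there were 36 regions in replicate 1 and 52 in replicate 2, on 3LHet 29 and 49, and on 3RHet 25 and 40. XHet held 11 regions in replicate 1 and 15 in replicate 2. On 2LHet the lists differed most, with 2 regions in replicate 1 (exact Poisson 95% interval 0.242 to 7.22) and 8 in replicate 2 (3.45 to 15.8), and these intervals overlap. YHet held 1 region in each list. Over all 6 scaffolds replicate 1 had 0.630 times as many regions as replicate 2, close to the 0.656 times on the 5 large arms. The members covered 18641 bp in replicate 1 and 34988 bp in replicate 2, of which 14665 bp were in both, or 37.6% of the bases covered in either list. On the arms that share was 39.4%. XHet shared the smallest part among the scaffolds with shared regions, 15.3%, and 2RHet the largest, 43.9%.

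**Figure D1:**
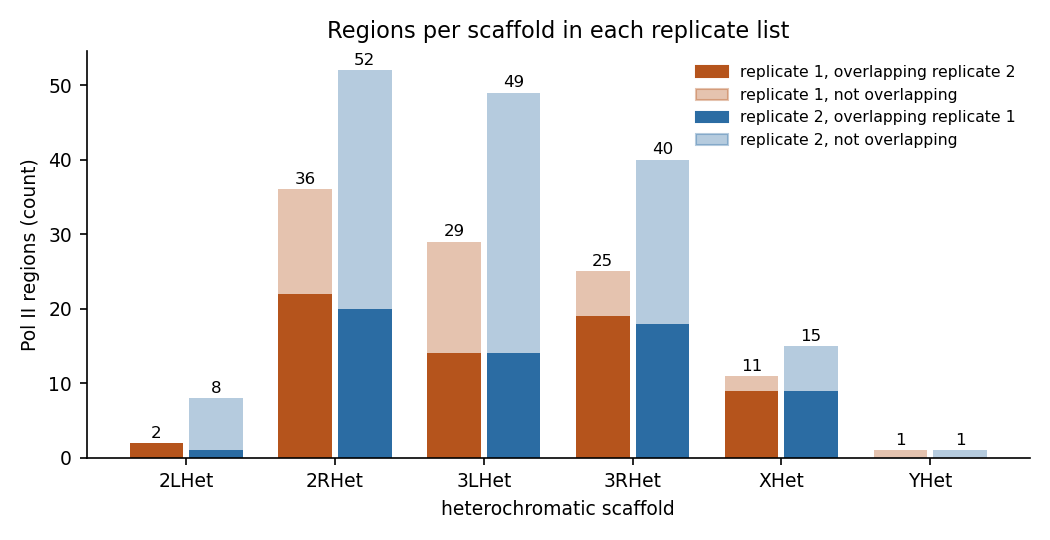
Number of Pol II regions (vertical axis) on each heterochromatic scaffold in replicate 1 (orange) and replicate 2 (blue). The dark part of a bar counts regions that overlap the other replicate by at least 1 bp and the pale part those that do not. The number above a bar is its total, and 2RHet has the most regions in both lists, 36 and 52.

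Narrow regions were more frequent on the scaffolds than on the large arms (2L, 2R, 3L, 3R and X), in both extractions. In replicate 1, 49 of 104 regions on the scaffolds were narrower than 100 bp (47.1%, Wilson 95% interval 37.8% to 56.6%), against 1679 of 5502 on the arms (30.5%, 29.3% to 31.7%) and 31.1% in the whole list. The difference was 16.6 percentage points (95% interval 7.20 to 26.2; two-sided Fisher's exact test, p = 0.00124 after Benjamini-Hochberg adjustment over 7 tests). In replicate 2 the counts were 67 of 165 on the scaffolds (40.6%, 33.4% to 48.2%) and 1791 of 8387 on the arms (21.4%, 20.5% to 22.2%), with 22.7% in the whole list. That difference was 19.3 points (12 to 26.9; two-sided Fisher's exact test, adjusted p = 2.21e-07). Members of replicate 1 had a median width of 114 bp (quartiles 48.8 and 267 bp, against a median of 153 bp on the arms), and those of replicate 2 had one of 128 bp (67.0 and 258 bp, against 207 bp). Regions under 10 bp made up 10.6% of the members in replicate 1, against 4.42% on the arms, and 6.06% in replicate 2, against 3.42%. Without 3LHet the shares under 10 bp were 5.33% and 5.17%. By scaffold, 3LHet had 18 of 29 regions under 100 bp in replicate 1 and 22 of 49 in replicate 2, and 3RHet had 10 of 25 and 13 of 40. Without 3LHet the difference in replicate 1 was 10.8 points and no longer passed the threshold of 0.05. With a limit of 200 bp in place of 100 bp it was 0.788 points in replicate 1, and the call ended, while replicate 2 kept a difference of 18.4 points. In the upper 50% of each chromosome by score the differences were 31.2 and 33.7 points. Against the centromere-facing Mb of each large arm alone they were 27.1 points in replicate 1 and 24.9 points in replicate 2. Chromosome 4, with 44.7% of its regions under 100 bp in replicate 1 and 38.0% in replicate 2, and U, with 37.0% and 60.0%, also had higher shares than the large arms, and neither was tested.

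**Figure D2:**
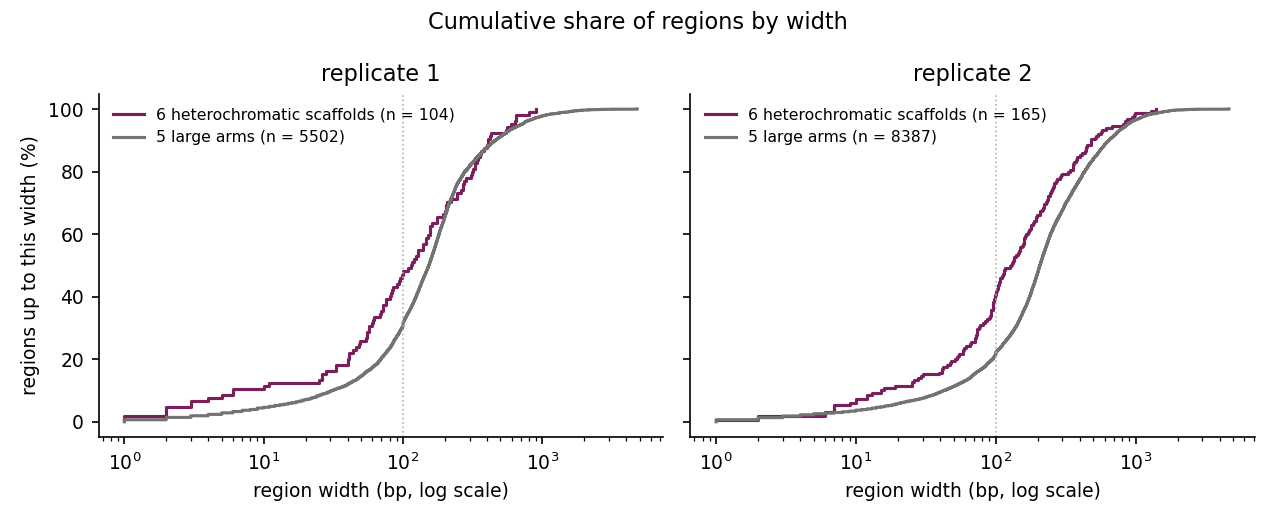
Share of regions up to a given width (vertical axis, %) against width in bp on a log axis, for replicate 1 (left) and replicate 2 (right). The purple line is the 6 heterochromatic scaffolds, the grey line the 5 large arms, and the dotted line marks 100 bp. In replicate 2 the purple line is well above the grey one at 100 bp (40.6% and 21.4%), and in replicate 1 both meet near 200 bp.

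At the other end of the range, 2 of the 61 whole-series regions on the scaffolds were at least 1000 bp wide (3.28%, Wilson 95% interval 0.904% to 11.2%), against 301 of 4196 on the arms (7.17%, 6.43% to 7.99%). The share in the whole list was 7.10%. The difference of -3.89 points (-6.41 to 4.05) did not pass the threshold (two-sided Fisher's exact test, adjusted p = 0.373). With a limit of 500 bp it was 0.819 points, of the opposite sign.

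Members overlapped the other replicate less often than regions on the arms did. The shares of the 2 lists count the same overlaps from either side, so they are not independent results. In replicate 1, 66 of 104 members shared 1 bp or more with the replicate 2 list (63.5%, Wilson 95% interval 53.9% to 72.1%), against 4431 of 5502 on the arms (80.5%, 79.5% to 81.6%) and 80.0% in the whole list. The difference was -17.1 points (-26.7 to -8.39; two-sided Fisher's exact test, adjusted p = 1.92e-04). In replicate 2, 62 of 165 members overlapped replicate 1 (37.6%, 30.5% to 45.2%), against 4253 of 8387 on the arms (50.7%, 49.6% to 51.8%) and 49.9% in the whole list, a difference of -13.1 points (-20.2 to -5.47; two-sided Fisher's exact test, adjusted p = 0.00160). The scaffolds were not alike. The share was lowest on 3LHet, at 48.3% in replicate 1 and 28.6% in replicate 2, and highest on XHet among the scaffolds with 10 or more regions in each list, at 81.8% and 60.0%. On 2RHet it was 61.1% and 38.5%, and on 3RHet 76.0% and 45.0%. Without 3LHet the difference in replicate 2 was -9.33 points and the call ended. Of members in the upper 50% of their scaffold by score, 35 of 54 in replicate 1 (64.8%, against 87.5% of such regions on the arms) and 35 of 84 in replicate 2 (41.7%, against 68.3%) overlapped the other replicate's whole list. With both lists cut to their upper 50% the differences were -37.3 points in replicate 1 and -24.2 points in replicate 2. Chromosome 4, at 69.7% and 34.7%, and U, at 71.6% and 34.7%, also had lower shares than the large arms, and neither was tested.

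Wide regions overlapped the other list more often than narrow ones, on the scaffolds and on the arms. Among regions at least 100 bp wide, 48 of 55 members of replicate 1 overlapped the other list (87.3%, Wilson 95% interval 76.0% to 93.7%), against 93.1% on the arms (92.3% to 93.9%). In replicate 2 it was 56 of 98 (57.1%, 47.3% to 66.5%) against 61.7% (60.6% to 62.9%). The differences of -5.85 and -4.59 points did not pass the threshold. Among narrower regions, 18 of 49 members of replicate 1 overlapped (36.7%, 24.7% to 50.7%), against 51.9% on the arms (49.5% to 54.3%), and 6 of 67 in replicate 2 (8.96%, 4.17% to 18.2%), against 10.1% (8.79% to 11.6%). The narrower class was not tested, and these width classes were compared after the overlap had been seen. Set against the centromere-facing Mb of each large arm alone, the overlap difference over all widths was -10.2 points in replicate 1 (-22.6 to 2.72, 95 arm regions). In replicate 2 it was -12.4 points (-23.3 to -1.14, 134 arm regions). Neither passed the threshold after adjustment, with far fewer arm regions than before.

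**Figure D3:**
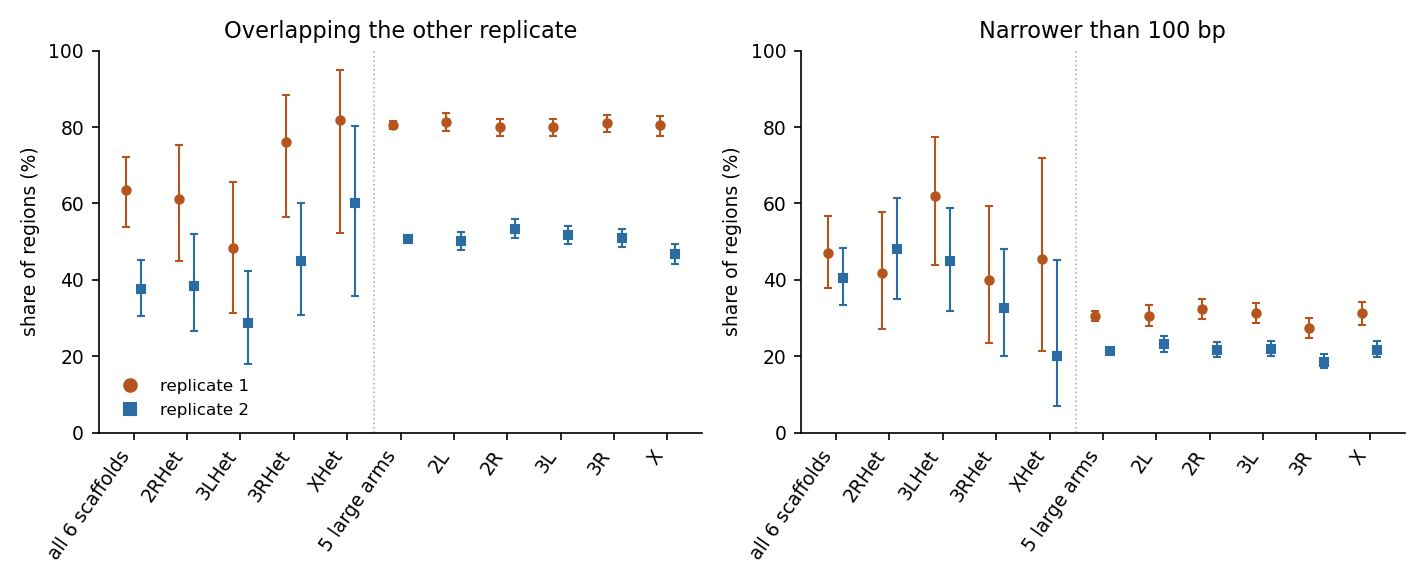
Share of regions (%) that overlap the other replicate's list (left) and that are narrower than 100 bp (right), for replicate 1 (orange circles) and replicate 2 (blue squares), with Wilson 95% intervals. The heterochromatic scaffolds are left of the dotted line, with 2LHet and YHet only in the pooled value, and the arms are right of it. On the left panel 3LHet is lowest (48.3% and 28.6%), and the pooled scaffolds lie below the pooled arms in both replicates.

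Regions without a counterpart were often far from any region of the other list. Of the 38 such members of replicate 1, 10 lay less than 1000 bp from a replicate 2 region (26.3%, against 54.1% of the 1071 on the arms) and 13 lay at least 10000 bp away (34.2%, against 9.52%). On 3LHet it was 10 of 15, and without that scaffold 3 of 23 (13%). Of the 103 in replicate 2, 17 lay less than 1000 bp from a replicate 1 region (16.5%, against 29.2% on the arms) and 55 at least 10000 bp away (53.4%, against 22.9%). The members were also sparser than regions of the arms, with the furthest listed end as a lower bound of length. There were 11.9 regions per Mb in replicate 1 (against 46.5) and 18.9 in replicate 2 (against 70.8), and U held 8.07 and 16.9. XHet had more (128 and 174), over a listed extent of only 86063 bp, and a longer scaffold would lower these values. The part of density in the distances was not tested. Members without a counterpart had a median width of 48.5 bp in replicate 1 and 86.0 bp in replicate 2, against 201 and 292 bp for members with a counterpart. Pooled over scaffolds, the median score was 3.33 without and 3.17 with a counterpart in replicate 1, and 3.37 and 3.32 in replicate 2. The scaffolds did not all follow the pooled order. On 3LHet the medians were 3.43 without and 3.62 with a counterpart in replicate 1, and 3.16 and 3.85 in replicate 2, and on XHet 2.45 and 2.58, and 2.38 and 3.11. On 2RHet they were 2.75 and 3.07 in replicate 1, and 4.11 and 2.99 in replicate 2, and 3RHet had the higher median without a counterpart in both lists (3.76 and 3.21, and 3.43 and 3.22). On the arms the pooled medians were 2.20 and 2.57 in replicate 1, and 2.10 and 3.09 in replicate 2.

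The 61 shared regions had a median width of 345 bp (quartiles 179 and 539 bp). All 61 ran from the outermost start to the outermost end of the regions joined in them, and 56 joined a single region of each replicate. The replicate 2 part was the wider one in 54 of 61 (88.5%, against 90.3% of the 4196 shared regions on the arms). Its median was 298 bp, against 208 bp in replicate 1, and on the arms these were 276 and 178 bp. Even so, the replicate 1 part often reached past the replicate 2 part, in some regions by a few bp only. In 7 regions (399 on the arms) it was the wider part and could not lie inside. The replicate 1 part lay wholly inside the replicate 2 part in 32 of 61 regions on the scaffolds (52.5%, Wilson 95% interval 40.2% to 64.5%), against 3300 of 4196 on the arms (78.6%, 77.4% to 79.9%) and 77.3% of the whole-series list. The difference was -26.2 points (-38.5 to -14.1; two-sided Fisher's exact test, p = 6.35e-06, not adjusted, and chosen after the values were seen). Among regions that join 1 of each replicate it was -26.6 points, and with each of the 5 scaffolds left out in turn it was between -28.6 and -22.8 points. Lying wholly inside is an all-or-none rule, which a shift of a few bp at an end breaks. In the regions that failed it, 11.5% to 99.3% of the replicate 1 width still lay inside. How far the replicate 1 part reached past was not compared with the arms. In 29 of 61 regions both ends differed by at most 50 bp between replicates, against 1844 of 4196 on the arms. This share was not tested. The median distance between the replicates' ends was 28.0 bp on the side of lower coordinates and 40.0 bp on the other. On the arms the median was larger on the side of lower coordinates and smaller on the other.

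**Figure D4:**
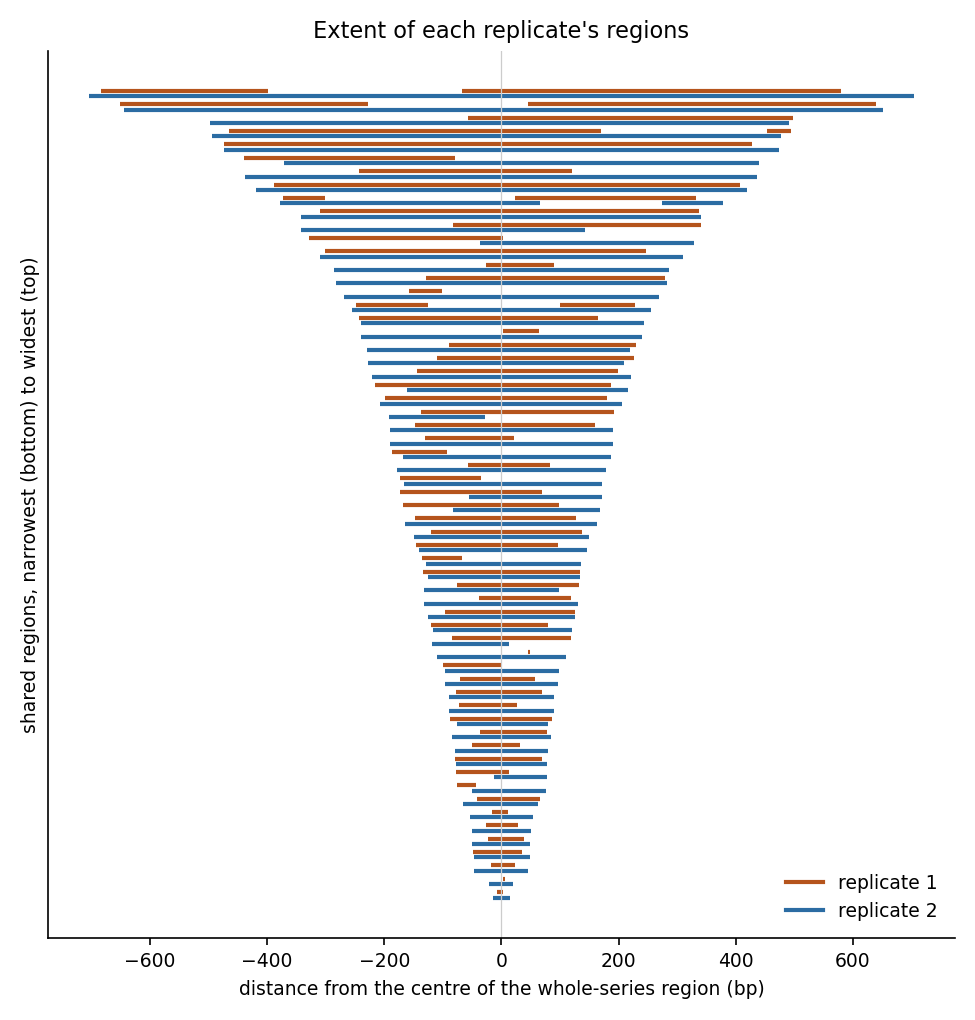
Extent of the replicate 1 (orange) and replicate 2 (blue) regions within each of the 61 shared regions of the heterochromatic scaffolds, as distance in bp from the centre of the whole-series region. Each row is a shared region, with the widest on top (1407 bp) and the narrowest at the bottom (30 bp). The blue line is longer in 54 rows, and in 32 rows the orange line does not reach past it.

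The scores of shared members ran from 1.44 to 8.57 in the whole-series list, with a median of 3.27 (quartiles 2.77 and 3.95). Scores on different chromosomes may not share a scale. In replicate 2 the median score was 19.3 on U and 2.47 on the large arms, and in replicate 1 it was 3.54 and 2.45. The reason was not tested, so orders by score across scaffolds and medians pooled over them describe the deposited numbers only. Tests of scores were not made. Replicate 1 scores over replicate 2 scores had a median log2 ratio of -0.18 (SD 0.63 over the 61 regions), against -0.19 (SD 0.60) on the arms. Replicate 1 scored higher in 19 of 61 (31.1%, against 35.7% on the arms) and replicate 2 in the other 42, and 7 of 61 differed by more than 2-fold (11.5%, against 11.2% on the arms). The replicate scores of the 61 regions had a Spearman correlation of 0.28, against 0.56 across the arms, as a description of regions that share a pair of libraries. By scaffold it was 0.51 over the 18 regions of 3RHet, 0.37 over the 14 of 3LHet, 0.29 over the 19 of 2RHet and -0.30 over the 9 of XHet. On the arms it lay between 0.52 on 3L and X and 0.62 on 2L. The correlation of region widths was 0.78 across the scaffolds and 0.60 across the arms. The order by width was thus closer between extractions on the scaffolds than the order by score, which is a description without a test.

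**Figure D5:**
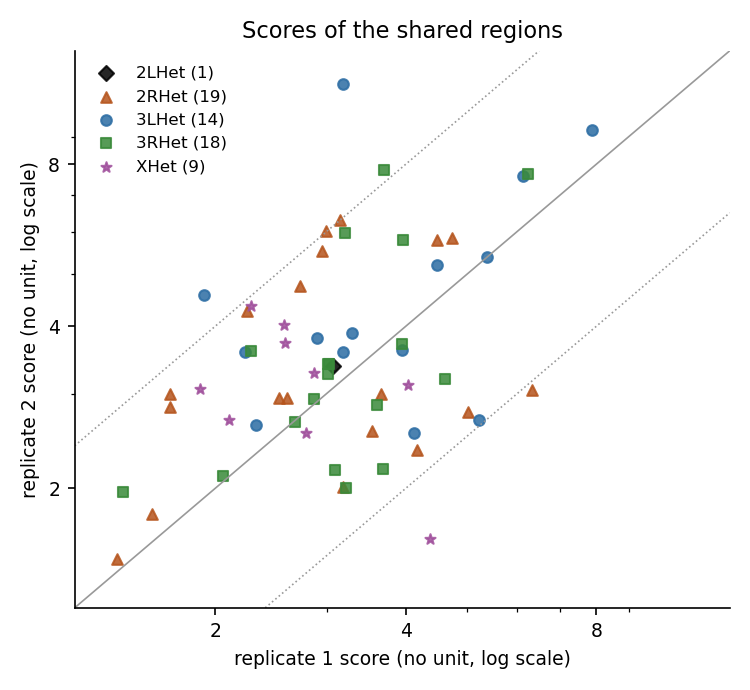
Score in replicate 2 (vertical) against replicate 1 (horizontal) of the 61 shared regions, on log axes without a unit, with a marker for each scaffold and its number of regions in the legend. The solid line marks equal scores and the dotted lines a 2-fold difference. Of the regions, 42 lie above the solid line, and 7 lie outside the dotted lines.

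The highest-scoring shared regions were on 3LHet (5 of the first 12), 2RHet (4) and 3RHet (3). The first, on 3LHet at 2398116 to 2398954 and 839 bp wide, had a score of 7.87 in replicate 1 and 9.26 in replicate 2. Its neighbour at 2397723 to 2397879, 236 bp before it, had 6.12 and 7.61. Both were high in both extractions. The second by score, at 2401026 to 2401124 on the same scaffold, reached 3.19 in replicate 1 and 11.3 in replicate 2, so its rank rests on replicate 2. These 3 belong to a group of 4 shared regions within 3402 bp, of which the remaining member, at 2399433 to 2399817, had a score of 4.13 in replicate 1 and 2.54 in replicate 2. 

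On 3RHet the highest was at 1935483 to 1935745, with 6.24 in replicate 1 and 7.67 in replicate 2. It was followed by 2380410 to 2380651, with 3.69 and 7.80, and by 2473999 to 2474872, with 3.96 and 5.79. The first of these differed least between the extractions. A further pair of 3LHet regions lay close together and differed little between the extractions. Scores of 5.37 in replicate 1 and 5.39 in replicate 2 were listed at 2268202 to 2268634, and 4.48 and 5.19 at 2267659 to 2267699. The narrower of the pair was 41 bp wide in replicate 2 and 2 bp wide in replicate 1.

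On 2RHet the strongest were at 471388 to 471767, with 4.74 in replicate 1 and 5.84 in replicate 2, and at 2776306 to 2776484, with 4.48 and 5.78. The region at 3142536 to 3142771 scored 3.15 and 6.31. The region at 2902185 to 2903171 was the only one of the 12 with a higher score in replicate 1, 6.34 against 3.05. Its value in replicate 1 is the mean of 2 regions, a wide one at 3.83 and one of 40 bp at 8.85, and with the overlap set to at least 50% of both regions its log2 ratio was 0.33 instead of 1.06. At 2812670 to 2813424 the deposited whole-series score was 3.49 and the mean of the replicates' mean scores was 3.27, the only shared member for which these differed by 0.0001 or more.

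The widest shared members were found on 2RHet and 2LHet. The first, on 2RHet at 391213 to 392619, spanned 1407 bp. It was a single region in replicate 2, scored 4.76, and 2 regions in replicate 1, scored 3.26 and 2.17. The single shared region of 2LHet, at 167428 to 168729 and 1302 bp wide, had the same make-up, with 3.37 in replicate 2 and with 2.21 and 3.92 in replicate 1. Both regions of replicate 1 on 2LHet lay inside it. Across the 61 shared members width and score had a Spearman correlation of -0.12, against -0.05 across the arms. The highest-scoring of them, on 3LHet from 2398116, was 839 bp wide. The third by width, on 2RHet at 3180502 to 3181495, had the lowest score of all 61, with 1.40 in replicate 1 and 1.48 in replicate 2. The others of the 6 widest were the 2RHet region from 2902185, a 3LHet region at 595504 to 596451 with 2.90 in replicate 1 and 3.80 in replicate 2, and a 3RHet region at 1694104 to 1694981 with 3.02 and 3.41.

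When regions of both lists less than 10 kb apart were joined, the members fell into 86 groups, of which 28 held a shared region and 53 held regions of 1 list only, 44 of them from replicate 2. The 3 groups with at least 5 shared regions held 20 of the 61 (32.8%), and 1 of these groups is the whole of XHet. On XHet all 26 members formed a single group between 47124 and 86063, with 9 shared regions, and no region was listed on the 47.1 kb before it. On 3RHet a group between 2473999 and 2481391 held 6 shared regions and 12 members, each of which overlapped the other replicate. Its scores ran from 2.67 to 3.96 in replicate 1 and from 2.17 to 5.79 in replicate 2. On 3LHet a group between 594782 and 608615 held 5 shared regions and 14 members, with shared scores of 2.90 to 5.23 in replicate 1 and 2.68 to 3.89 in replicate 2. These groups were described after the positions had been seen. No such grouping of the arms is given, so the counts of groups have no background beside them. The list of replicate 2 is also the longer one (8872 regions, against 5763 in replicate 1).

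Between such groups the lists were empty over long stretches. The longest stretch without a member in either list was 595 kb on 3RHet (791697 to 1387013), 594 kb on 2RHet (670950 to 1264913) and 316 kb on 3LHet (1874316 to 2189897). With the furthest region end as a lower bound of length, the 6 scaffolds held 6.97 whole-series regions per Mb (exact Poisson 95% interval 5.33 to 8.96), against 35.4 (34.4 to 36.5) on the arms. XHet, whose listed regions end at 86063, went the other way with 105 per Mb (47.8 to 199). That value falls if the scaffold runs on past this end. U held 5.78 per Mb. No test was made of these densities, since how much of each scaffold 36 nt reads can be assigned to was not examined.

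The share of members with a near neighbour was not called different from that on the arms. In replicate 1, 41 of 104 had another region of the list less than 1000 bp away (39.4%, Wilson 95% interval 30.6% to 49.0%), against 2021 of 5502 on the arms (36.7%, 35.5% to 38.0%) and 36.3% in the whole list. In replicate 2 it was 65 of 165 (39.4%, 32.3% to 47.0%), against 3747 of 8387 (44.7%, 43.6% to 45.7%) and 44.1% in the whole list. The differences were 2.69 points (-6.26 to 12.4) in replicate 1 and -5.28 points (-12.5 to 2.41) in replicate 2, and neither passed the threshold (two-sided Fisher's exact test, adjusted p = 0.608 and 0.252). Within the upper 50% of each chromosome by score they were 15.0 points in replicate 1, past the threshold, and 6.34 points in replicate 2, and with a limit of 500 bp the difference in replicate 1 was -0.823 points. With a limit of 2000 bp it was -8.27 points in replicate 2 (-15.8 to -0.622; adjusted p = 0.0545, Fisher's exact test). The closest shared neighbours were 208 bp apart on 3RHet (2477072 to 2477635 and 2477844 to 2477975), 236 bp on 3LHet, 259 bp on XHet (62610 to 63265 and 63525 to 63676) and 353 bp on 2RHet (470233 to 470530 and 470884 to 470991). In the 3RHet pair the scores were alike, at 2.87 and 3.61 in replicate 1 and 2.93 and 2.86 in replicate 2.

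The order of the XHet members by score changed between extractions. The 9 shared regions had scores of 1.89 to 4.37 in replicate 1 and 1.61 to 4.37 in replicate 2. The region at 62610 to 63265 was the highest in replicate 1, at 4.37, and the lowest in replicate 2, at 1.61. The region at 57556 to 57724 was the highest in replicate 2, at 4.37, and scored 2.28 in replicate 1. By the whole-series score the highest was at 76286 to 76824, with 4.03 in replicate 1 and 3.11 in replicate 2. Its replicate 1 part was 57 bp wide and its replicate 2 part 539 bp.

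The Y chromosome, most of whose genes act in the male germ line, gave the highest score among the members and no shared region. In replicate 1 its only region was at 205276 to 205329 and scored 24.3, and in replicate 2 it was at 204203 to 204215 and scored 15.1. These lay 1060 bp apart, in an otherwise empty scaffold with 204 kb before the first of them. Members found in a single extraction included further high and very narrow ones. In replicate 1 they were on 3RHet at 2017990 to 2017994 (score 19.1), and on 3LHet at 2267893 to 2267903 (6.46) and 599877 to 599961 (6.06). In replicate 2 they were on 2RHet at 2266617 to 2266645 (14) and 1326004 to 1326018 (10.7), and on 3RHet at 298442 to 298448 (12.3). The 3RHet region of replicate 2 lay 478315 bp from any replicate 1 region, while the 3RHet region of replicate 1 lay 243 bp from a replicate 2 region.

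Such narrow regions carried the top of the score range. A score of 10 or more was reached by 2 members in replicate 1 and 5 in replicate 2, each narrower than 100 bp. These are 1.92% and 3.03% of the members, against 0.291% and 0.453% of the regions on the arms, where 3 of 16 and 5 of 38 were narrower than 100 bp. High scores were not particular to the members. On U the score quartiles in replicate 2 were 13.2 and 29.5, so most of its regions passed 10, and its highest score in replicate 1 was 27.7. Of the members scoring 10 or more, both in replicate 1 and 4 of the 5 in replicate 2 had no counterpart. Among all members, 38 of 104 in replicate 1 and 103 of 165 in replicate 2 had none. On the arms it was 1071 of 5502 and 4134 of 8387. How many arm regions scoring 10 or more had none was not counted, so these few members have no background beside them. Across members, the Spearman correlation of width and score was -0.25 in replicate 1 (104 regions) and -0.27 in replicate 2 (165 regions). Across the arms it was 0.24 (5502 regions) and 0.08 (8387 regions). These describe regions of the same library, and scores were pooled over scaffolds whose scale may differ. The median score of members under 100 bp was 3.22 in replicate 1 and 4.01 in replicate 2, and that of wider members was 3.02 in both. On the arms narrow regions scored lower, with medians of 2.20 and 2.28, than wider ones, with 2.66 and 2.56.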

How the data were processed

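Pol II ChIP-seq region lists of 2 chromatin extractions and of the whole series were analysed. Per the labels, libraries were size-selected at 150 to 200 bp and read as single ends of 36 nt. The authors deposited GFF3 lists, which per the file headers are on FlyBase r5.1 and name PeakSeq, a caller of enriched regions, as source. The deposited score has no name or unit. The sources used here do not give the aligner, read filters, control or threshold. Each replicate has its own list. Only regions that passed the caller are listed, so an unlisted position is not shown to lack Pol II.

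Members were taken by scaffold name and set beside the 5 large arms of the same list. Overlap meant at least 1 bp. A replicate's score for a shared region was the mean over its regions there. Shares were compared with two-sided Fisher's exact tests, adjusted by the Benjamini-Hochberg method over 7 tests with a threshold of 0.05. Shares have Wilson intervals, differences Newcombe intervals and counts exact Poisson intervals, all at 95%. Regions named are the 12 highest-scoring and 6 widest shared members, the highest of each scaffold, every YHet region, the 4 highest of each list without a counterpart, and the closest pair on each scaffold. Any other region was named after its values were seen. The members, limits and tests were chosen with earlier results of these data known. The comparisons of width classes, nesting, arm ends, high scores against the whole other list and groups of regions were added once the values had been seen. The gene table at hand is of genome Release 6 and was not applied. Routines were tested on simulated lists. Tests and intervals were computed with SciPy 1.17.1 and NumPy 2.4.6, tables were handled with pandas 2.3.3 in Python 3.11.15, and plots were drawn with Matplotlib 3.10.9.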

Additional observations from a re-analysis of the deposited data

How the results depend on the processing

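Of 64 alternatives to a tested share, 53 left direction and call in place. Many of these could change little, such as leaving out YHet (1 region in each list) or adding chromosome 4 (76 and 150 regions). The 64 also include shares that had no call to lose, and the nesting share, whose test was not adjusted and was added later. The count of 53 therefore says little about stability. The lower overlap on the scaffolds lost its call among regions at least 100 bp wide (-5.85 points in replicate 1 and -4.59 in replicate 2), against the centromere-facing Mb of the arms (-10.2 and -12.4), which hold fewer regions, and in replicate 2 without 3LHet (-9.33). The excess of narrow regions in replicate 1 lost its call with a limit of 200 bp (0.788 points) and without 3LHet (10.8 points). With both lists cut to the upper 50% of each chromosome by score the overlap differences were -37.3 points in replicate 1 and -24.2 in replicate 2. With only the list counted cut, they were -22.6 and -26.6 points. Narrow-region differences were 27.1 and 24.9 points against the centromere-facing Mb of the arms, and 31.2 and 33.7 points in the upper 50%. That subset, neighbours counted within it, gave more close neighbours on the scaffolds, past the threshold in replicate 1 (15.0 points) and with the sign turned in replicate 2 (6.34 points). Close neighbours within 500 bp in replicate 1 (-0.823 points) and wide regions from 500 bp (0.819 points) turned sign without passing the threshold in either setting, and within 2000 bp the difference in replicate 2 was -8.27 points (Fisher's exact test, adjusted p = 0.0545). With a single replicate list the wide-region difference was -2.19 to -2.16 points. The 61 whole-series regions became 104 and 165 in the replicate lists, which also hold unshared regions, and 32 in the upper 50% by score. All 8 alternatives kept the median log2 score ratio within 1 SD over regions (0.63), which is a wide limit for a median. For 18 named regions 29 of 30 alternatives stayed within it, the exception being the 2RHet region from 2902185. Most of the named regions join a single region of each replicate. There the settings used cannot change the ratio, so the count of 29 says little about stability. For the 2LHet region from 167428, which joins 2 regions of replicate 1, the sign turned with the highest score of the joined regions (0.22 in place of -0.14). The cause of these changes was not tested. No paired analysis was possible because the ChIP samples form a single group and the inputs were not analysed here. No overlap share can be had with a replicate left out. Unknown depth limits how far list lengths can be read.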
